A study of Mus musculus with 8 samples.

Results

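DE_Sox5_Qrfpr is the name that the deposited annotation gives to a subtype of dorsal excitatory neurons of the mouse spinal cord. Its nuclei were taken by that name in all libraries, which gave 358 of the 4076 neurons, or 8.78%, among 12447 nuclei in all. The annotation divides the neurons into 28 subtypes, of which 10 carry the prefix DE.

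The nuclei came from the low thoracic cord of wild-type C57BL/6 mice and were profiled by droplet single-nucleus RNA sequencing in 8 libraries of 5 groups. In experiment 1, a sort on GFP gave 2 traced libraries of neurons that project to the lumbar walking centres and 2 untraced, GFP-negative libraries with the same 2 replicate numbers, all uninjured. Experiment 2 has 2 libraries after hemisection, a cut through one side of the cord, and 1 uninjured control library. Experiment 3 has 1 library of traced neurons labelled regenerating. No other allele or agent, and no age, is given in the labels, and nothing there says how many animals entered the single control and regenerating libraries, so p-values measure the spread between the replicate libraries alone.

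The dorsal horn receives sensory input on touch, temperature, itch and pain, and most of its neurons are local excitatory or inhibitory cells that process it before it leaves the cord. Excitatory cells use the vesicular glutamate transporter Slc17a6 and divide into types by the neuropeptides and peptide receptors they make. Sox5 is a transcription factor of the SoxD family, and Qrfpr is the receptor for the peptide QRFP.

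Both dorsal excitatory markers of the name were present, and Qrfpr was sparse. Sox5 (chr6:143828425-144781977, minus strand, GRCm38) had a UMI, a distinct captured transcript molecule, in 94.1% of the 358 nuclei, against 34.5% of nuclei in the other DE subtypes and 6.19% of oligodendrocytes, which should lack it. Its level was 2420 CPM, a scale on which the counts of all genes, summed over the nuclei, are set to one total, and the next subtype was DE_Tac2_Nmu at 1600 CPM. Thinning every nucleus to 2000 UMIs left the share at 96.0% of 329 nuclei, against 4.19% of oligodendrocytes.

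Qrfpr (chr3:36179424-36222313, minus strand) had a UMI in 19.8% of nuclei, against 3.2% in the other DE subtypes and 0.588% of oligodendrocytes. The median nucleus had 7731 UMIs here, 6935 in the other DE subtypes and 3072 among oligodendrocytes. At 108 CPM the subtype was the highest of the DE subtypes, ahead of DE_Rreb1_Zim1 at 81.9 CPM, but the inhibitory subtype DI_Npy was higher at 233 CPM. The peptide gene Qrfp had no UMI in the subtype. Slc17a6 (chr7:51622006-51671119, plus strand) was found in 67.9% of nuclei and stood at 198 CPM, a level inside the range of 169 to 302 CPM over the 10 DE subtypes. The enzymes of GABA synthesis, Gad1 and Gad2, had a UMI in 5.03% and 6.42% of nuclei, close to the 4.0% and 5.05% of the shallower oligodendrocytes. In all, 14 nuclei held none of Sox5, Qrfpr and Slc17a6.

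Depth differed between libraries. The median DE_Sox5_Qrfpr nucleus had 5924 to 8032 UMIs in the untraced, hemisection and control libraries and 504 UMIs in the regenerating library, whose 17 nuclei hold 10367 UMIs together. Mitochondrially encoded transcripts took 0.432% of the UMIs in the control nuclei and 0.0617% to 0.104% in the other 6 libraries with nuclei of the subtype. The summed level of 8 oligodendrocyte markers in these neurons was 961 CPM in the control, 482 CPM in the regenerating library and 121 to 285 CPM in the untraced and hemisection libraries. Neurons made up 89.6% of the nuclei in hemisection replicate 1 and 7.15% in replicate 2. No nucleus of the subtype with a cell barcode sequence shared it with a nucleus of another library, against 8 such nuclei in the whole series. The nuclei of the regenerating library carry no barcode sequence and could not be compared.

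Relative to the mean of the other 27 neuron subtypes, the genes that led DE_Sox5_Qrfpr combined a neuropeptide, peptide and lipid receptors and a few regulators of transcription. These genes helped to define the subtype, so the values are a description and carry no test. Unc5cl (chr17:48454901-48539714, plus strand), which encodes an UNC5C-like protein with a death domain, stood at 205 CPM against a mean of 1.22 CPM, and the next subtype, DI_Nxph1_Npy, reached 13.9 CPM. Grpr (chrX:163513904-163549677, minus strand), the receptor for gastrin-releasing peptide and a known itch receptor of the dorsal horn, stood at 85.6 CPM against 3.03 CPM, with DE_Rreb1_Zim1 next at 56.6 CPM. Ptger3, a receptor for prostaglandin E2, stood at 144 CPM against 7.22 CPM. Lmo3, a LIM-only cofactor of transcription, reached 675 CPM against 43.5 CPM, and Myo5b, a myosin motor of vesicle transport, 378 CPM against 26.9 CPM.

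Tac1 (chr6:7554879-7565834, plus strand), the precursor of substance P, stood at 617 CPM against 61.9 CPM, and the subtype DE_Tac1 at 554 CPM. These levels are pooled over libraries, and the control, which holds most of the counts, was the highest for Tac1. The other genes of the leading 15 were Col5a2, Fam163a, Prss12, Notch2, Otof, Ddr2, Skor2 and Sphkap, besides Sox5 itself. Otof, which encodes the vesicle calcium sensor otoferlin, was at 377 CPM and lay below DE_Cck_Cpne4 at 547 CPM. Skor2, a transcriptional corepressor, was at 96.2 CPM and lay below DE_Rreb1_Zim1 at 138 CPM.

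**Figure D1:**
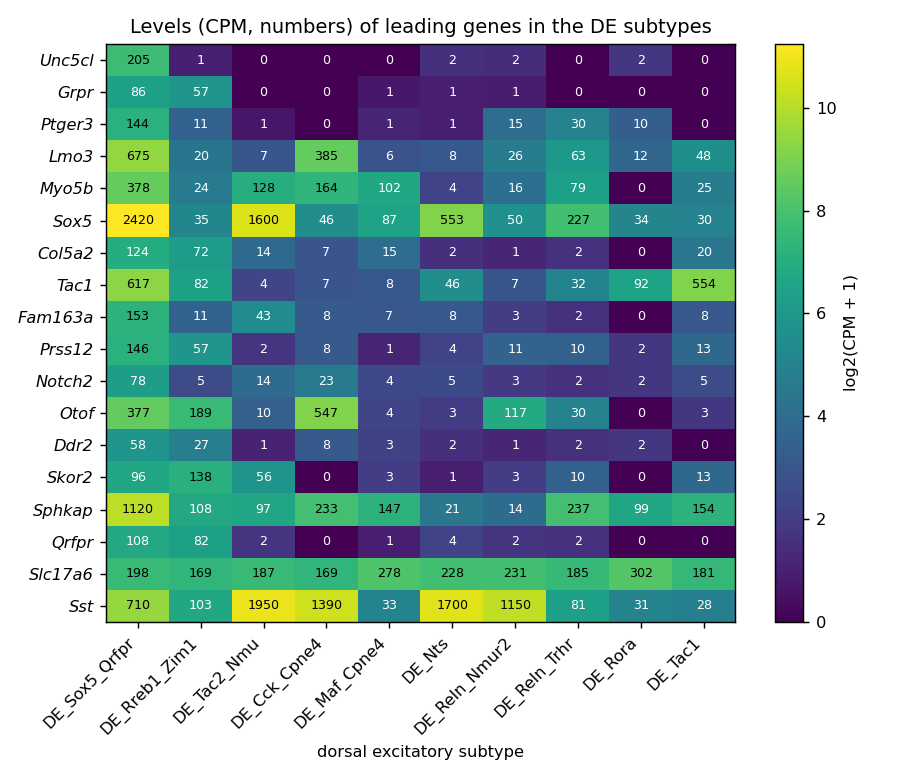
Levels of the 15 leading genes and of Qrfpr, Slc17a6 and Sst (rows) in the 10 DE subtypes (columns), coloured by log2(CPM + 1), with the CPM printed in each cell. Unc5cl is at 205 CPM in DE_Sox5_Qrfpr and at most 2.42 CPM in any other DE subtype, whereas Sox5 is shared with DE_Tac2_Nmu and Tac1 with DE_Tac1.

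Unc5cl, Grpr and Sox5 were found in the untraced, hemisection and control libraries alike. Unc5cl was at 214 and 181 CPM in untraced replicates 1 and 2, at 207 and 113 CPM in hemisection replicates 1 and 2, at 205 CPM in the control and at 386 CPM in the regenerating library. Grpr was at 106 and 106 CPM in the untraced replicates, at 65.0 and 45.2 CPM after hemisection and at 88.2 CPM in the control, with 0 counts in the shallow regenerating library. Sox5 ranged from 1740 CPM in the regenerating library to 3430 CPM in untraced replicate 2. For Unc5cl the untraced, hemisection and control values overlapped, and the regenerating value was higher but rests on UMIs in 3 of 17 nuclei. For Sox5 the control lay between the hemisection replicates and below both untraced ones, and the regenerating library, with 18 counts, lay below all 5. Tac1, another leading gene, had most of its counts in the control, where it was at 947 CPM against 130 to 287 CPM in the untraced and hemisection libraries and 0 in the regenerating one. The single traced nucleus held Sox5, Tac1, Grpr, Sst and Unc5cl and no Qrfpr.

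Among the neuropeptides, 9 of the 26 measured reached 10 CPM. Beside Tac1, Nmb, which encodes neuromedin B, was highest of the 28 subtypes at 15.6 CPM. Penk, the enkephalin precursor, stood at 391 CPM, second of the 28 subtypes and highest of the DE subtypes. Sst, the somatostatin precursor, stood at 710 CPM, below 4 other DE subtypes, of which DE_Tac2_Nmu was highest at 1950 CPM. Peptides that name other DE subtypes were low: Tac2 was at 11.3 CPM against 3920 CPM in DE_Tac2_Nmu, Cck at 9.55 CPM against 1110 CPM in DE_Cck_Cpne4, and Grp, the ligand of Grpr, at 16.3 CPM against 268 CPM in DE_Reln_Trhr.

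Among 42 measured peptide and opioid receptors, 16 reached 10 CPM. Oprm1, the mu opioid receptor, was lower than in any other subtype at 11.7 CPM against a mean of 122 CPM, while Oxtr, the oxytocin receptor, was second of 28 at 15.6 CPM. Tacr1, the receptor for substance P, was at 50.9 CPM and had a UMI in 19.6% of nuclei. Of the 37 receptors for amines and acetylcholine, the serotonin receptor Htr4 and the nicotinic subunit Chrna7 were highest of all subtypes at 273 and 276 CPM, against means of 83.8 and 51.4 CPM. The serotonin receptor Htr2c was at 58.7 CPM against 812 CPM and stood last of 28, and the muscarinic receptor Chrm3 was at 46.7 CPM against 397 CPM.

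Channels and receptors for fast transmission followed the same mixed pattern of a few high and a few low members. The A-type potassium channel subunit Kcnd3 was highest of the subtypes at 1040 CPM against 207 CPM. The kainate receptor subunit Grik1 was second at 1190 CPM against 263 CPM, while its relative Grik3 was at 8.13 CPM against 135 CPM. Gabrg3, a GABA-A receptor subunit, was last of 28 at 163 CPM against 1120 CPM. Over the 46 potassium and sodium channel genes the median log2 ratio to the mean of the other subtypes was -0.09, and over the 25 glutamate receptor genes -0.10, against -0.11 over the 19074 genes with a count in neurons.

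Of the 63 axon guidance and adhesion genes, 11 (17.5%) were among the top 3 of the 28 subtypes, against 11.9% of the 19074 genes, and 4 were the lowest. The netrin receptor Dcc stood at 4040 CPM against 1610 CPM and Sema5a, a semaphorin, at 902 CPM against 167 CPM. The guidance cues Slit2 and Slit3 were low, at 37.5 CPM against 387 CPM and at 14.1 CPM against 222 CPM, and Epha7, an ephrin receptor, was lowest of the subtypes at 32.2 CPM. Over the 20 factors of dorsal excitatory identity the median log2 ratio was -0.64, below the mean of the other subtypes. Of these factors, 2 (10%) were among the top 3, against 11.9% of all genes. Lmx1b was at 130 CPM, Ebf2 at 1020 CPM and Prrxl1 at 58.7 CPM, above the means of 65.3, 541 and 24.9 CPM. Lbx1 was near 0 at 0.707 CPM, and Tlx3 was at 8.84 CPM. Of the 10 factors linked to long-range projection, none was among the top 3 (0 of 10, against 11.9% of all genes). At that share a list of this size holds few such genes or none. Their median log2 ratio was -1.89, with Zfhx3 at 45.3 CPM against 320 CPM. The 8 factors of local circuits also had a negative median, -1.33, with 1 (12.5%) among the top 3, so both lists were low.

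The 8 lowest ratios belonged to genes of other classes, among them Pkd2l1, the channel of neurons that contact the cerebrospinal fluid, at 1.41 CPM against 92.6 CPM. Nxph1, which encodes the neurexin ligand neurexophilin 1, was at 29.7 CPM against 805 CPM. The homeobox factor Meis2 was at 9.9 CPM against 270 CPM, and Bnc2, a zinc finger factor, was at 6.72 CPM against 165 CPM.

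Over the 2000 genes most variable between subtypes, the profile was nearest to DE_Rreb1_Zim1 (Spearman correlation 0.776), DE_Tac2_Nmu (0.733) and the inhibitory DI_Pdyn_Gal (0.728). This is a description across genes, and genes are not replicates. Against DE_Rreb1_Zim1, with which it shares Grpr, Qrfpr and Skor2, Sox5 was at 2420 against 35.1 CPM and Pde11a, a phosphodiesterase, at 628 against 17.6 CPM, while Rreb1 was at 15.9 against 409 CPM. Against DE_Tac2_Nmu, with which it shares Sox5, Tac1 was at 617 against 4.1 CPM and Nmu, the neuromedin U precursor, at 4.6 against 746 CPM. Against DI_Pdyn_Gal, the inhibitory factor Pax8 was at 2.47 against 198 CPM.

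The nuclei of DE_Sox5_Qrfpr divided by Tac1. Among the 329 nuclei with at least 2000 UMIs, 80.6% of the 196 with a Tac1 UMI also had Sst, against 21.1% of those without. The genes most and least often found with Tac1 were chosen in the control library, 10 on each side by the phi coefficient of joint detection, and then read in untraced replicate 1 and hemisection replicate 1, which the choice did not use. Those found with Tac1 were Pde11a, Plcxd3, Sst, Kcnk2, Unc5cl, Lmo3, Tshz2, Pde1c, Dlgap2 and Ncald. Those found apart from it included Fgf10, Sema3c, Syndig1, Necab1, Ccdc85a, Ano3, Chrm2, Kcnb2 and St8sia1. The median phi of the first set was 0.58 in the control, 0.67 in untraced replicate 1 and 0.17 in hemisection replicate 1. For the second set it was -0.51, -0.59 and -0.27, against medians of -0.02, -0.08 and -0.05 over 6287 genes. The signs in the control followed from the choice. In untraced replicate 1 and in hemisection replicate 1, 10 of 10 of the first set and 0 of 10 of the second were positive. Of the 6287 genes, 1970 and 2089 were positive there, so negative signs were the more common. The signs of the 2 sets were thus the same in both other libraries. Values were nearer to 0 in hemisection replicate 1, with Pde1c at 0.05. Genes of the 2 sets share nuclei and libraries, so these values carry no p.

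In the control, 86.7% of the 128 nuclei with Tac1 and 23.8% of the 63 without it held Sst, and the median UMI counts were 7830 and 8499. Unc5cl was in 68.8% and 6.35% of them. Fgf10, a fibroblast growth factor, showed the opposite, with 6.25% and 58.7%, as did Necab1, a neuronal calcium-binding protein, with 39.1% and 93.7%. The name-giving genes lay on both sides: Sox5 was found in 100.0% and 96.8% of the nuclei, whereas Qrfpr was found in 18% and 38.1% and Grpr in 35.2% and 50.8%. Qrfpr and Grpr were less frequent in nuclei with Tac1 in untraced replicate 1 too, at 7.14% against 33.3% and 35.7% against 53.3%, and in hemisection replicate 1, at 7.14% against 28.3% and 14.3% against 32.6%. Sst also had a UMI in 28.1% of the oligodendrocytes of the control library, whose median was 3346.5 UMIs, beside the 23.8% in neurons without Tac1. In untraced replicate 1 the shares were 6.29% of oligodendrocytes and 13.3% of neurons without Tac1, and in hemisection replicate 1 they were 8.06% and 19.6%. The part of free RNA was not tested.

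**Figure D2:**
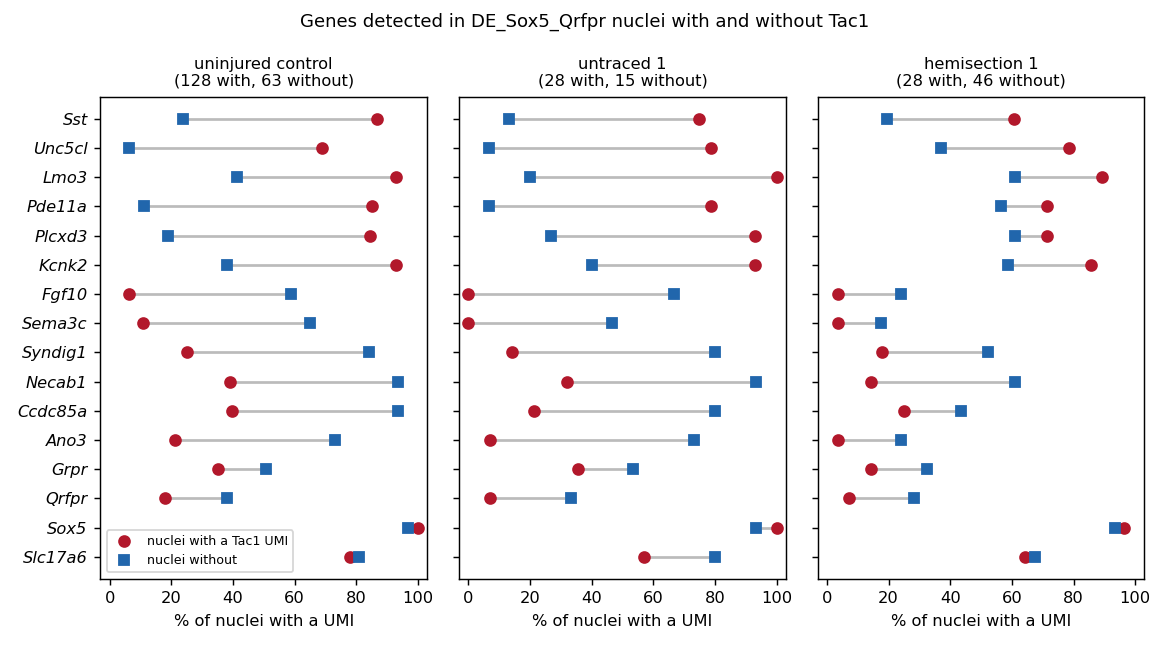
Share of DE_Sox5_Qrfpr nuclei with a UMI of each gene (x axis, percent) among nuclei with a Tac1 UMI (circles) and without one (squares), in 3 libraries, for nuclei with at least 2000 UMIs. In all 3 panels the genes from Sst to Kcnk2 lie to the right in nuclei with Tac1 and those from Fgf10 to Qrfpr to the left, while Sox5 is near 100% in both.

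The sequences upstream of Sst and Tac1, the peptide genes found in the same nuclei, are shown from RefSeq (GRCm38.p6) as the 250 bases before the RefSeq start of each gene, 5′ to 3′ on the gene's strand, at chr16:23890845-23891094 (minus) and chr6:7554811-7555060 (plus). Capitals mark the cyclic AMP response element TGACGTCA, searched on both strands from 250 bases before to 50 bases after the start.
Sst: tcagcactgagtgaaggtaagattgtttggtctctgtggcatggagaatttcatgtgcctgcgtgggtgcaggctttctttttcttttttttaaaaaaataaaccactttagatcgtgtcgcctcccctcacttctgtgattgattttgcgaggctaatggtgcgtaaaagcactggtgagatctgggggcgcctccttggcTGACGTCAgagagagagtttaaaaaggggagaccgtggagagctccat
Tac1: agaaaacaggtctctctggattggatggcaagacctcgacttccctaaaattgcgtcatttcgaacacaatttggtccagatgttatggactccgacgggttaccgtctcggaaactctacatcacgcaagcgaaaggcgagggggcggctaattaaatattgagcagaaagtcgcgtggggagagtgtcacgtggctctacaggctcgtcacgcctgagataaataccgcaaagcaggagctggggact
In the GENCODE model both genes start further upstream, inside these windows, at 23890958 for Sst and 7554879 for Tac1. Sst held 1 match, whose first base lies at position -48 from the start, and Tac1 held 0 in this window. The motif is in 1.79% of the 32851 promoters of the table.

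Tac1 was found in 67.0% of the 191 control nuclei of that depth, in 65.1% of the 43 of untraced replicate 1 and in 37.8% of the 74 of hemisection replicate 1. Nuclei that held Pde11a also held Tac1 in 94.0% of 116 cases in the control (exact 95% binomial interval 88.0% to 97.5%), in 95.7% of 23 in untraced replicate 1 (78.1% to 99.9%) and in 43.5% of 46 in hemisection replicate 1 (28.9% to 58.9%). In hemisection replicate 2 all 5 nuclei with Pde11a held Tac1, and in untraced replicate 2 it was 5 of 8. Nuclei with Unc5cl gave the same order, 95.7% in the control and in untraced replicate 1 and 56.4% in hemisection replicate 1, against 5 of 5 in hemisection replicate 2. With every nucleus thinned to 2000 UMIs, Tac1 was found in 16.2% of 74 nuclei of hemisection replicate 1 and in 2 of 10 of replicate 2. It was found in 39.5% of 43 nuclei of untraced replicate 1, in 5 of 10 of replicate 2 and in 59.2% of 191 control nuclei. Both hemisection libraries were below the 3 uninjured ones on that scale, although 10 nuclei give a coarse share. Without thinning, Tac1 was found in 6 of 10 nuclei of hemisection replicate 2 and in 5 of 10 of untraced replicate 2. The order of the libraries thus depended on the thinning. Nuclei are not replicates, and no test was made.

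The share of neurons called DE_Sox5_Qrfpr was lower among neurons traced from the lumbar cord than in the other groups, but not past the threshold. Traced replicate 1 held 1 such nucleus among 80 neurons, or 1.25% (exact 95% binomial interval 0.0316% to 6.77%), and traced replicate 2 held 0 of 25, which allows a share of up to 12% by a floor of 3 nuclei and 13.7% by the exact interval. Untraced replicates 1 and 2 held 43 of 354 and 10 of 123, or 12.1% (8.93% to 16%) and 8.13% (3.97% to 14.4%). Both traced libraries lay below both untraced ones, and the interval of traced replicate 1 overlaps that of untraced replicate 2 but not that of untraced replicate 1. The means were 0.625% ± 0.884 and 10.1% ± 2.84 (SD, n = 2 each), a log2 difference of -3.48 (SE 0.812). In the edgeR quasi-likelihood test over the 28 subtypes the adjusted p was 0.08 and 0 of 28 subtypes, 0.0%, were called, with an unadjusted p of 0.00571 for DE_Sox5_Qrfpr. The adjusted p was 0.0156 with TMM scaling and 0.0308 with neurons of at least 2000 UMIs only, so the call depends on these settings. Without traced replicate 1 the difference was -8.95 against a library with 0 nuclei. The traced and untraced libraries were sorted on GFP, which sets what neurons enter each.

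The share did not differ past the threshold in any of the 3 other comparisons. Hemisection replicates 1 and 2 held 85 of 1000 and 10 of 108, or 8.5% (6.85% to 10.4%) and 9.26% (4.53% to 16.4%), and the control held 192 of 2148, or 8.94% (7.77% to 10.2%). The control lay between the hemisection libraries, at a log2 difference of -0.05 (SE 0.278, edgeR adjusted p = 0.94). In that comparison 1 of 28 subtypes, 3.57%, was called, and it was the nearest relative, DE_Rreb1_Zim1, at 4.9% and 3.7% after hemisection against 1.3% in the control (log2 difference 1.86, edgeR adjusted p = 0.00783). Without hemisection replicate 1, 0 subtypes were called. The untraced libraries differed from the control by 0.27 (SE 0.292, edgeR adjusted p = 0.635), with 0 of 28 subtypes, 0.0%, called.

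The regenerating library held 17 of 238, or 7.14% (4.22% to 11.2%), a share above both traced libraries and below the other 5. Its interval overlaps those of all other libraries, the traced ones included. Against the traced libraries the log2 difference was 2.88 (SE 0.936), with an edgeR adjusted p of 0.217 and 0 of 28 subtypes, 0.0%, called. All 17 nuclei had under 2000 UMIs, and only 6 of them held a Sox5 UMI, so their names rest on few counts. The part of this depth in the share was not tested.

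**Figure D3:**
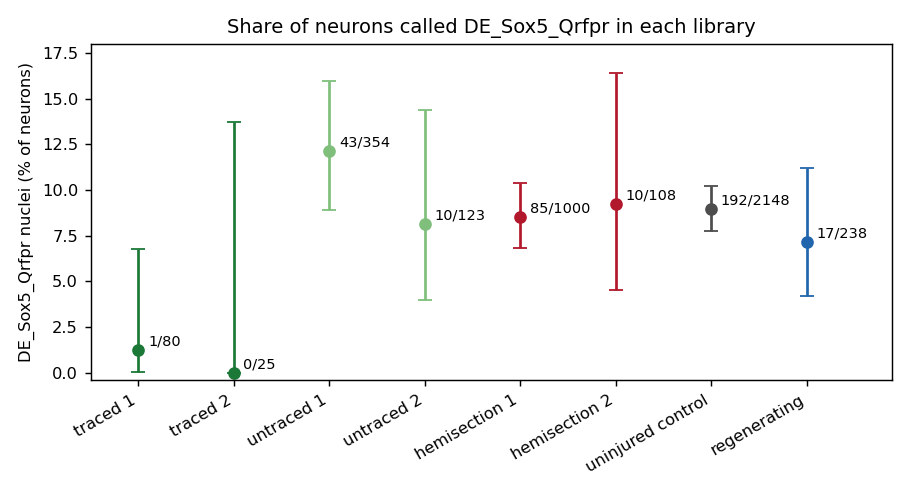
Share of neurons called DE_Sox5_Qrfpr (y axis, percent) in each library (x axis), with the number of nuclei of the number of neurons beside each point and exact 95% binomial intervals as bars, which cover counting error only. The traced libraries lie at 1.25% and 0.0%, and the other 6 libraries between 7.14% and 12.1%.

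Within the subtype, hemisection nuclei differed from control nuclei in a few genes that were higher and many more that were lower. Counts were summed per library over the nuclei of the subtype, and the 6 libraries with at least 5 such nuclei entered the fit. Of 6394 genes tested, 141 (2.21%) were called at an adjusted p under 0.05 by the edgeR quasi-likelihood test, 13 higher (0.203%) and 128 lower (2.0%). The control is 1 library, so its spread was taken from the replicated groups, and without hemisection replicate 1, the larger of the pair, 0 genes were called. Without hemisection replicate 2 the count was 82, and DESeq2 called 2, with 44 at an unadjusted p under 0.05.

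Genes of the interferon response were higher after hemisection. Rnf213 (chr11:119393100-119487418, plus strand), a ubiquitin ligase induced by interferon, was at 98.9 and 136 CPM after hemisection, at 9.38 CPM in the control and at 5.42 and 30.2 CPM in the untraced replicates. Both hemisection libraries lay above the 3 uninjured ones (log2 fold change against the control 3.49, SE 0.6, adjusted p = 2.92e-06). Ifit1 (chr19:34640871-34650009, plus strand), an antiviral RNA-binding protein, was at 63.5 and 90.4 CPM against 9.38 CPM in the control (2.87, SE 0.755, adjusted p = 0.0107). Of the 5 members tested among 18 interferon genes, 3 rose and 0 fell, with a median log2 fold change of 3.32, against 0.02 over all 6394 genes. All 5 were highest in the hemisection libraries, and the count filter keeps a gene that is high in 1 group alone. The list median is thus raised by which members could be tested, and it is a description only. The 6 tested members of the antigen presentation and complement list had positive values, with a median of 2.63, and 0 were called. Nlrc5, H2-K1, Cd74 and Tapbp passed the filter through hemisection replicate 2, at 79.1, 79.1, 90.4 and 56.5 CPM. Their positive signs therefore followed from the filter and are not a result. Of the 6, H2-K1, a class I chain, had 31 counts after hemisection and 3 in the control (adjusted p = 0.127), while B2m, which pairs with it, gave 0.03 (adjusted p = 0.999).

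The same transcripts were present in non-neuronal nuclei of the hemisection libraries. Rnf213 was at 489 and 452 CPM there, against 44.3 CPM in the control, and its part in the values of the neurons was not tested. Ifit1 was at 62.2 and 50.6 CPM in the non-neuronal nuclei and thus not above its level in the neurons.

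Chrm4 (chr2:91927249-91928688, plus strand), the M4 muscarinic acetylcholine receptor, was at 66.4 and 124 CPM in the hemisection replicates, at 0.625 CPM in the control and at 0 in both untraced replicates. It was high in both hemisection libraries and nearly missing from the uninjured ones, with 56 counts in 21 of 95 nuclei against 1 count in 192 nuclei. The ratio of rates was 117 with an exact 95% interval of 20.1 to 4700, and the edgeR adjusted p was 1.47e-05. In non-neuronal nuclei it was at 8.48 and 0.316 CPM after hemisection. Chrm4 was the 1 called gene among the 10 tested receptors for amines and acetylcholine.

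Igkc, an immunoglobulin light chain made by B lineage cells, was at 51.7 and 124 CPM after hemisection and at 0.625 CPM in the control, a ratio of rates of 96.0 (exact 95% interval 16.4 to 3870, edgeR adjusted p = 7.24e-04). Non-neuronal nuclei of the same libraries held it at 116 and 564 CPM, above the neurons, and the control at 8.39 CPM. The haemoglobin chain Hba-a1 was higher as well, at 69.4 and 56.5 CPM against 14.4 CPM, with 249 and 233 CPM in non-neuronal nuclei. It was also at 151 CPM in untraced replicate 2. The part of free RNA from other cells in these transcripts was not tested.

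Arhgap26, which encodes a GTPase-activating protein, was at 418 and 362 CPM after hemisection, at 88.2 CPM in the control and at 136 and 151 CPM in the untraced replicates. Its hemisection values lay above all 3 uninjured libraries (log2 fold change 2.14, SE 0.442, adjusted p = 2.52e-04). Col18a1, a collagen, was at 196 and 90.4 CPM against 40.7 CPM in the control (1.98, SE 0.458, adjusted p = 0.00195). Kcnmb2, a subunit of calcium-activated potassium channels, was at 106 and 136 CPM against 35.0 CPM (1.69, SE 0.511, adjusted p = 0.0444). Ehd4, a protein of membrane traffic, was at 112 and 599 CPM against 77.5 CPM in the control (edgeR adjusted p = 0.00227). Its level differed between the hemisection replicates by more than it did from the control. The untraced replicates, at 149 and 438 CPM, were also above the control and overlapped the hemisection values. Non-neuronal nuclei after hemisection held Arhgap26 at 93.3 and 21.5 CPM, Col18a1 at 2.83 and 5.06 CPM and Kcnmb2 at 2.83 and 5.37 CPM, below the neurons, but Ehd4 at 319 and 1150 CPM, above them.

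**Figure D4:**
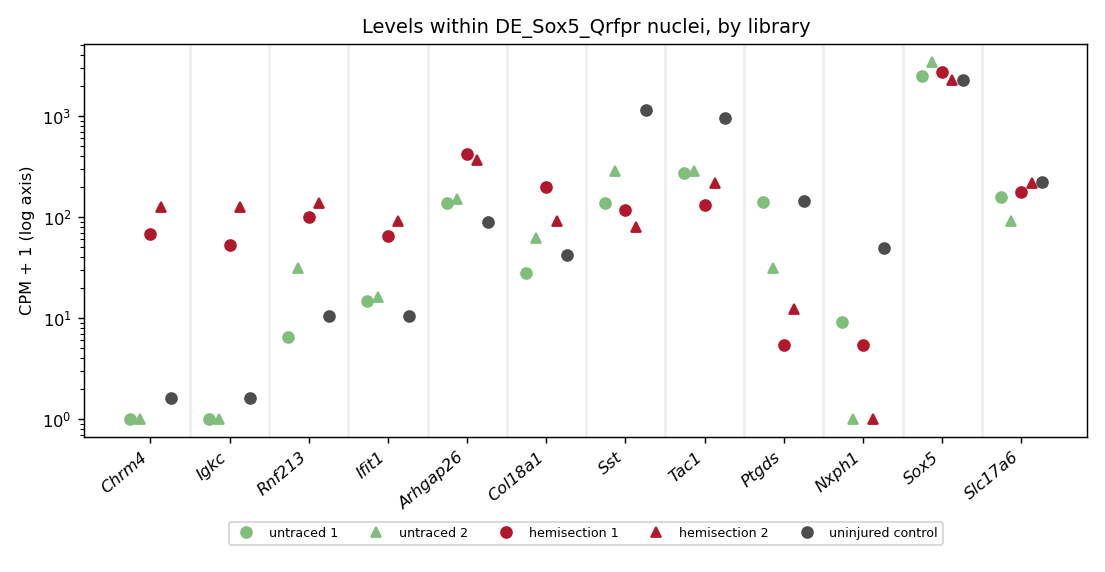
Level of selected genes within DE_Sox5_Qrfpr nuclei (y axis, CPM + 1, log axis) in 5 libraries, with circles for replicate 1 and triangles for replicate 2. Chrm4, Igkc, Rnf213 and Ifit1 are higher in both hemisection libraries than in the 3 uninjured ones, while Sst, Tac1 and Nxph1 are higher in the uninjured control than in the other 4 libraries.

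The neuropeptide genes Sst and Tac1 fell after hemisection against the control, and both were also lower in the other uninjured reference. Sst (chr16:23889573-23890958, minus strand) was at 117 and 79.1 CPM in the hemisection replicates, at 1150 CPM in the control and at 136 and 287 CPM in the untraced replicates. The control stood apart from the other 4 libraries, with log2 fold changes of -3.46 for hemisection (SE 0.407, adjusted p = 6.28e-14) and -2.63 for untraced (SE 0.408, adjusted p = 1.95e-07). Tac1 was at 130 and 215 CPM after hemisection, 947 CPM in the control and 271 and 287 CPM in the untraced replicates, which gave -2.60 (SE 0.401, adjusted p = 7.35e-08) and -1.78 (SE 0.393, adjusted p = 0.00188). Hemisection against untraced, the difference was -0.83 for Sst (SE 0.408) and -0.82 for Tac1 (SE 0.384), both with an edgeR adjusted p of 1.0.

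Of the 4 tested neuropeptides of 26 measured, 2 fell against the control and 0 rose in both comparisons, which share that library. Among all 6394 genes, the shares called lower were 2.0% for hemisection and 0.735% for untraced, each against the control. Penk gave -0.77 (SE 0.394, adjusted p = 0.627). Both peptide transcripts were also present in control oligodendrocytes, Tac1 in 6.23% of 3164 nuclei and Sst in 28.1%, against 0.392% and 1.44% of 765 in hemisection replicate 2 and 0.0% and 8.06% of 62 in hemisection replicate 1. The part of such free RNA in the difference was not tested.

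Mitochondrial, chaperone and oligodendrocyte transcripts were among the other genes that fell after hemisection, and members of all 3 lists were also lower in untraced than in control nuclei. Of 11 tested mitochondrially encoded transcripts, 10 fell (median log2 fold change -2.73), and 8 fell in untraced against control (-2.72). Of 11 tested chaperones of the endoplasmic reticulum and heat shock list, 6 fell against the control, among them Calr at -2.41 (adjusted p = 2.50e-04) and Hspa5 at -1.98 (adjusted p = 7.04e-04), and 3 fell in untraced against control. Of 5 tested oligodendrocyte markers, 4 fell against the control, and 1 of the 5 fell in untraced against control. Mbp, which encodes myelin basic protein, gave -1.87 (SE 0.431, edgeR adjusted p = 0.00173). Cnp, an enzyme of myelin, had 1 count after hemisection and 81 in the control. Over all 6394 genes, 2.0% were called lower after hemisection and 0.735% in untraced nuclei. Some members, such as Cnp, Mal and mt-Nd3, were high in the control alone, and the count filter keeps a gene that is high in 1 group alone. The counts and medians of these 3 lists are thus raised by which members could be tested, and they are descriptions only.

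Ptgds, a prostaglandin D synthase abundant in oligodendrocytes, fell the most of the genes named by the rule, at 4.43 and 11.3 CPM after hemisection, 144 CPM in the control and 141 and 30.2 CPM in the untraced replicates. Hemisection lay below all 3 uninjured libraries (-4.71, SE 0.649, adjusted p = 5.24e-10). Non-neuronal nuclei held it at 582 to 838 CPM after hemisection and at 3070 CPM in the control. Nfia, a transcription factor of late-born local neurons and of glia, was at 5.91 and 11.3 CPM against 57.5 CPM in the control (-3.08, SE 0.848, adjusted p = 0.017). The untraced replicates, at 29.8 and 15.1 CPM, were also below the control. Against them hemisection was not called, with 5 counts against 12. Non-neuronal nuclei held Nfia at 752 to 1080 CPM, and their part in the values was not tested. Other named falls were Trf, Ndufa13, Clu, Tubb4a and Tgoln1, between -3.08 and -2.79. Each was also lower in both untraced replicates than in the control, such as Clu at 27.1 and 15.1 CPM against 137 CPM. None of them was called for hemisection against untraced.

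Few or no members of the lists that describe the identity and excitability of the subtype were called, against 2.21% of all 6394 genes. At that share a list of this size holds few calls or none, so these counts do not set the lists apart from other genes. Sox5 differed between hemisection and control by 0.12 (SE 0.377), Slc17a6 by -0.26 (SE 0.407), Qrfpr by -0.76 (SE 0.432) and Grpr by -0.56 (SE 0.461), and 0 of these 4 were called. Among 20 tested glutamate receptors 0 were called, as among 15 tested receptors for GABA and glycine, 50 tested guidance and adhesion genes and 15 tested regeneration-associated genes, with medians of 0.03, -0.12, -0.01 and 0.09. Of 41 tested potassium and sodium channels, 1 rose, Kcnmb2, and 1 fell. Atf3, an early gene of injured neurons, had 1 count after hemisection and 0 in the control and was not tested.

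**Figure D5:**
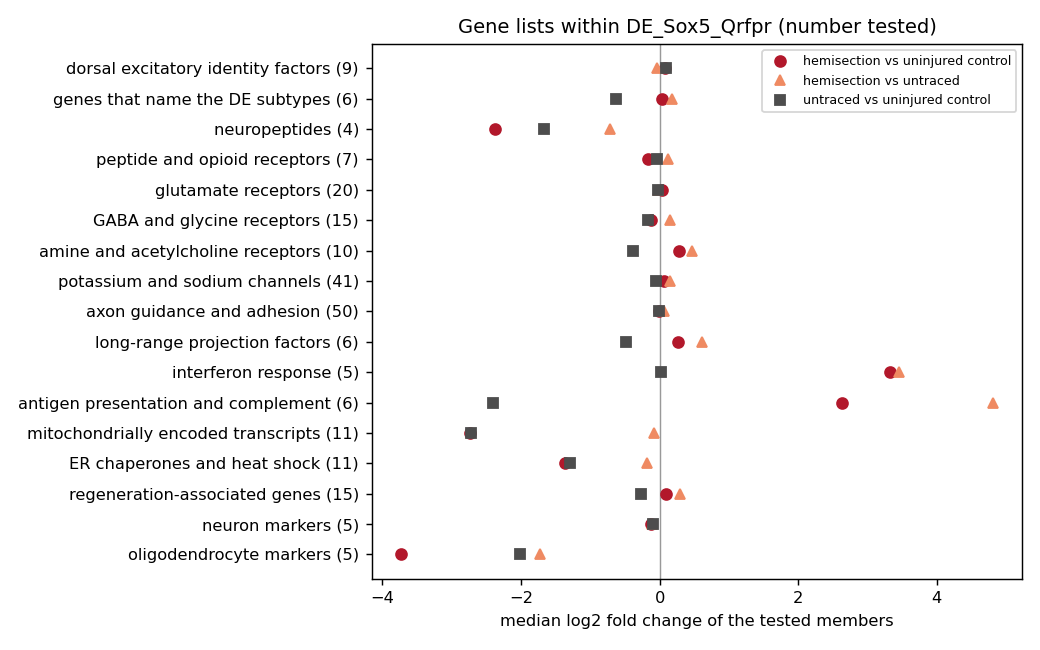
Median log2 fold change of the tested members of each list with at least 4 of them (x axis), in 3 comparisons within DE_Sox5_Qrfpr, with the number tested beside the name. The interferon list lies at 3.32 and 3.46 in both comparisons with hemisection and at 0.03 between the uninjured references, with 2.32 for hemisection against untraced where Oasl2 is set to its bound, while mitochondrial transcripts lie at -2.73 and -2.72 in both comparisons with the control. The tested interferon genes passed the filter through their level after hemisection, and some mitochondrial transcripts through their level in the control, so the medians of both lists are descriptions.

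Set against the untraced nuclei, the uninjured reference of experiment 1, the hemisection nuclei differed in 7 of 6394 genes (0.109%), 6 higher (0.0938%) and 1 lower (0.0156%). Those higher included Chrm4, Igkc, Rnf213, Bach2 and Col18a1, and the gene that fell was Ptgds. This comparison shares its hemisection libraries with the one above. Chrm4 and Igkc had 0 counts in the untraced libraries, so with the group set to a floor of 3 counts they were at least 10.6-fold and at least 8.71-fold higher (adjusted p = 0.00473 and 0.0441). Rnf213 gave 3.46 (SE 0.723, adjusted p = 0.00366). Of the 5 tested interferon genes, 2 rose, with a median of 3.46, or 2.32 with Oasl2, which had 0 untraced counts, at its bound. Of the 6 tested antigen presentation and complement genes 0 were called, and the median of 4.81 was 2.23 with 3 such genes at their bounds. Most tested members of both lists passed the filter through their level after hemisection, so the 2 list medians are descriptions and not a test.

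Bach2, a transcriptional repressor, was at 105 and 113 CPM after hemisection, at 19.0 and 15.1 CPM in the untraced replicates and at 46.3 CPM in the control (2.52 against untraced, SE 0.62, adjusted p = 0.0441). Hemisection exceeded all 3 uninjured libraries. Non-neuronal nuclei held it at 277 to 350 CPM in all 5 libraries. A sort and the experiment differ between these groups as well, so they and the injury cannot be told apart here. The count was 0 without hemisection replicate 1, 4 without hemisection replicate 2 and 19 without untraced replicate 2, and DESeq2 called 0, with 23 at an unadjusted p under 0.05.

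The uninjured references differed from each other in 54 genes (0.845%), 7 higher in untraced nuclei (0.109%) and 47 lower (0.735%). Beside Sst and Tac1, the neurofilament genes Nefm and Nefl were lower in untraced nuclei, at 24.4 and 15.1 CPM against 144 CPM in the control for Nefm (-2.66, SE 0.588, adjusted p = 0.00188) and at 21.7 and 15.1 CPM against 115 CPM for Nefl (-2.48, SE 0.627, adjusted p = 0.0141). Tmsb4x, which encodes an actin-binding thymosin, had 3 counts in untraced nuclei and 219 in the control, a ratio of rates of 19.9 (exact 95% interval 6.7 to 97.0). Non-neuronal nuclei of the control also held more of these transcripts, with Nefm at 280 CPM against 11.2 and 7.65 CPM in the untraced libraries, and the part of that in the difference was not tested.

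Notch2, a receptor among the leading genes of the subtype, was higher in untraced nuclei, at 136 and 287 CPM against 50.7 CPM (1.84, SE 0.46, adjusted p = 0.0124). Mettl23, a methyltransferase, was at 163 and 181 CPM against 38.8 CPM (2.11, SE 0.479, adjusted p = 0.00298), and Srsf2, a splicing factor, at 155 and 181 CPM against 43.2 CPM (1.90, SE 0.472, adjusted p = 0.0114). Without hemisection replicate 1 in the fit, 4 genes were called, and DESeq2 called 0, with 24 at an unadjusted p under 0.05.

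The response of DE_Sox5_Qrfpr to hemisection was tested against that of the other DE neurons of the same libraries. Of 8868 genes, 1 (0.0113%) had an interaction past the threshold, Nxph1 (chr6:8948431-9249032, plus strand). In the subtype it was at 4.43 and 0.0 CPM after hemisection, 48.8 CPM in the control and 8.14 and 0.0 CPM in the untraced replicates. In the other DE neurons it was at 294 and 247 CPM after hemisection and 309 CPM in the control. The subtype was thus low in 4 libraries and higher in the control, while its relatives varied little, with a log2 difference between the responses of -3.54 (SE 0.761, edgeR adjusted p = 0.0287). The counts were 78 in the control and 3 and 0 after hemisection, and the call was lost without hemisection replicate 1 (adjusted p = 1.0), without hemisection replicate 2 (0.212) and without the regenerating library (0.0518).

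Of the genes named by the rule for hemisection against control, Kcnmb2 alone had the opposite sign in the other DE neurons, at -0.03. Chrm4 was called there too (adjusted p = 5.11e-05). Rnf213 gave 1.89 in the other DE neurons and 3.49 here, Sst -2.53 and -3.46, and Tac1 -2.01 and -2.60, and none of these differences passed the threshold. Arhgap26 gave 0.72 (adjusted p = 0.47) in the other DE neurons against 2.14 here, and Nfia gave -0.26 against -3.08, an interaction of -2.77 (SE 0.717, edgeR adjusted p = 0.216).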

How the data were processed

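The authors deposited 1 matrix of UMI counts, not normalized, for 19787 genes, with an annotation that names library, class and subtype of each nucleus. The builds mm10 and GRCm38 and the tools Seurat 3 and Cell Ranger 4.0.0 are named, per the submitters' processing notes. How nuclei were filtered, doublets removed and subtypes named was not given in the sources used here, and nothing was filtered further. No doublet caller was applied, and 48 of the 358 nuclei held a UMI of Gad1, Gad2 or Slc32a1.

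Counts were summed per library over the nuclei of the subtype, which hold 2828336 UMIs, and given as CPM. Tests used edgeR 4.0.16 in R 4.3.3 (TMM, filterByExpr, glmQLFit and glmQLFTest, Benjamini-Hochberg over all tested genes) and were tested on simulated data. Every adjusted p is from this edgeR test. The gene fit had 6 libraries and 2 residual degrees of freedom, with groups of 1 library assumed to vary like the others. Shares were tested on numbers of nuclei of 28 subtypes with the neuron total as library size. DESeq2 1.42.0, other filters, scalings and totals, depth thinning and left-out libraries were alternatives. Standard errors come from the moderated F statistic. Levels, detection and co-detection are descriptions, made with Python 3.11.15. Intervals and floors cover counting error only.

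Genes were named in order of fold change, up to 10 in each direction, if they were called, averaged 20 CPM or more and had groups that did not overlap. Mitochondrial, ribosomal protein and unnamed genes were passed over, and a few genes are not reported here. The leading genes are the 15 highest ratios to the mean of the other subtypes among genes of 50 CPM or more. List members named were those with the smallest p, and further members were chosen after their values were seen. The nuclei, lists and comparisons were chosen with earlier results of these data known. Coordinates of genes come from GENCODE M21 and promoters from RefSeq.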

Additional observations from a re-analysis of the deposited data

Results flagged for a closer look

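Nxph1 differed between DE_Sox5_Qrfpr and the other DE neurons in the change from control to hemisection, by -3.54 on the log2 scale in the edgeR quasi-likelihood test of the difference itself. It had 78 counts in the control nuclei of the subtype and 3 in each of hemisection replicate 1 and untraced replicate 1, with 0 in the other replicate of both groups.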

How the results depend on the processing

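The shares and genes kept their direction in most alternatives. For traced against untraced, the log2 share difference was -3.83 with TMM over subtypes and -3.50 with neurons of at least 2000 UMIs, both then past the threshold, and -3.53 with the replicate block (adjusted p = 0.0715), and it ran from -8.95 to -3.07 when a library was left out. The block changed no other call of this subtype. The titles give traced and untraced libraries the same replicate numbers without saying what they share, and their replicate differences in log2 share correlated at -0.03 over 28 subtypes, so the numbers may not pair them. Hemisection against control turned to 0.0254 with neurons of at least 2000 UMIs and ran from -0.0724 to 0.0507 without a replicate. Untraced against control turned to -0.12 with DE neurons as the total and ran from -0.14 to 0.44 without a replicate. None of these 3 turns was near the threshold.

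For genes in hemisection against control, 141 calls became 91 with nuclei thinned to 5000 UMIs, 222 with the libraries of the groups compared, 2 with DESeq2 and 0 to 207 without a replicate. For hemisection against untraced, 7 became 4 with a mean of at least 20 CPM, 1 with thinning, 0 with the groups compared, 0 with DESeq2 and 0 to 19 without a replicate. For untraced against control, 54 became 35 with a mean of at least 20 CPM, 35 with thinning, 0 with DESeq2 and 4 to 46 without a replicate. For the interaction, 1 became 2 against all other neurons, 0 without a filter, 0 with DESeq2, 0 without the regenerating library (added after the data were seen) and 0 to 3 without a replicate. The causes were not tested. Leaving out hemisection replicate 1 keeps 10 hemisection nuclei and gave the lowest count in each of the 3 gene comparisons. Leaving out low-depth neurons removed all regenerating nuclei, so that value could not be fitted, and genes of traced nuclei were not tested, since 1 nucleus was found.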

Other observations

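A small number of DE_Sox5_Qrfpr nuclei lacked a Sox5 UMI. Among the 329 nuclei with at least 2000 UMIs, 321 held Sox5, and Qrfpr was found in 20.6% of these and in 62.5% of the other 8, whose median was 4004 UMIs against 7911. Qrfpr and Grpr were found together in 37 nuclei, which is 52.1% of the 71 nuclei with Qrfpr, while 33.3% of nuclei without Qrfpr held Grpr. The median UMI counts were 8660 and 7784.5, and the part of depth was not tested.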
